A study of Mus musculus with 24 samples.

Results

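The 10 genes described here encode 7 receptors for prostanoids (Ptgir, Tbxa2r, Ptger1, Ptger2, Ptger3, Ptger4 and Ptgfr) and 3 proteins that move or break down prostanoids (Slco2a1, Hpgd and Abcc4). They were taken by symbol from a table of 25941 genes, and all 10 passed the filter on low counts that left 14451 genes for testing. RNA had been sequenced from the thoracic aorta of adult male wildtype C57BL/6 mice, 10 to 12 weeks old, in 3 groups of 8 libraries. One group ate chow with celecoxib at 100 mg/kg/day for 3 weeks, another chow with rofecoxib at 50 mg/kg/day for 3 weeks, and the control group the regular chow with no drug added. All aortas were collected 11 hours into the light-dark cycle (zeitgeber time). The 3 groups share strain, genotype, sex, tissue and collection time, and the 2 drug groups differ in dose as well as in drug. The question that the design poses is what each drug diet does to the transcripts of the vessel wall.

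Prostanoids are short-lived lipid signals that cyclooxygenases make from arachidonic acid, and celecoxib and rofecoxib are inhibitors selective for cyclooxygenase-2, the product of Ptgs2. In the vessel wall, prostacyclin acts on the Ptgir receptor to raise cyclic AMP and relax smooth muscle, whereas thromboxane acts on the Tbxa2r receptor to raise calcium and contract it. Prostaglandin E2 has 4 receptors: Ptger2 and Ptger4 raise cyclic AMP, Ptger3 mainly lowers it, and Ptger1 raises calcium. Ptgfr is the contractile receptor for prostaglandin F2alpha. The signals end when Slco2a1 carries prostaglandins into cells and Hpgd oxidises them, while Abcc4 exports prostaglandins and cyclic nucleotides.

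The tissue label was met by the markers: Acta2, the actin of smooth muscle, averaged 18360 CPM (its counts as a share of all counts of the library, on the CPM scale with TMM factors) over the 24 libraries, and no gene found for the 12 marker lists was at 0 in all libraries. Counts summed to between 21652432 and 21687906 per library, a range of 0.164%, so depth was near equal, and no source used here says how the totals came to be so alike. Against controls, rofecoxib libraries had a higher mean smooth muscle marker score (difference 0.18, two-sided exact permutation p = 0.00435, adjusted p = 0.0261), a lower fibroblast score (-0.35, exact permutation p = 0.00373, adjusted p = 0.0261) and a lower macrophage score (-0.45, exact permutation p = 0.0123, adjusted p = 0.0491), where a score is the mean log2(CPM + 0.5) of the list and p-values are adjusted over the 12 lists. The fibroblast score was also higher in celecoxib than in rofecoxib libraries (0.39, exact permutation p = 0.00155, adjusted p = 0.0187), and no list passed between celecoxib and control. Control 6 held the highest adipocyte marker sums, and rofecoxib 2 the highest cardiac muscle sum (581.5 CPM against 75.2 to 120.0 CPM in the other rofecoxib libraries); rofecoxib 5 held the highest endothelium sum. The slope of log2 CPM on transcript GC content, per unit of GC fraction, averaged 0.77 ± 0.91 in celecoxib, -1.06 ± 0.94 in rofecoxib and 0.28 ± 0.85 in control libraries (SD, n = 8 each). It differed between celecoxib and rofecoxib (exact permutation p = 0.00171, adjusted over 3 comparisons p = 0.00513) and between rofecoxib and control (exact permutation p = 0.00855, adjusted p = 0.0128). The submitters describe biological replicates, but the labels tie no library to a named animal, so p-values measure the spread between these libraries. Libraries were built over 3 days, per the labels, and no day is given for any library, so a batch of this kind was not tested.

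Upstream sequence is shown for 2 receptors with opposed roles in vessel tone, Ptgir and Tbxa2r. Each line gives the 250 bases before a RefSeq transcript start on build GRCm38.p6, 5′ to 3′ on the gene's strand, with GGGCGG, the core of the SP1 box, in capitals.
Ptgir, chr7:16906240-16906489, plus strand: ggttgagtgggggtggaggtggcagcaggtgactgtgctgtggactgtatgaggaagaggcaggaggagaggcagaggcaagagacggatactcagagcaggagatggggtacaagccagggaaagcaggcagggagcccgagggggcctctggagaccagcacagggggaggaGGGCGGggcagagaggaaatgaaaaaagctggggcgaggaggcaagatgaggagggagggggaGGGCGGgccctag
Tbxa2r, chr10:81328018-81328267, plus strand: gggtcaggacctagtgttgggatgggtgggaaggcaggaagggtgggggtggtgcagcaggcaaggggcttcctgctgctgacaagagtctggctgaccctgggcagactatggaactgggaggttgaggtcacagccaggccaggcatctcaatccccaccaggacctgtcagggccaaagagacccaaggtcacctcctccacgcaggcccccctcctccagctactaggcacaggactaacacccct
Both stretches are GC-rich, at 63.6% for Ptgir and 62.4% for Tbxa2r. The Ptgir stretch holds GGGCGG at 2 places, and the Tbxa2r stretch at none. On either strand, 32.7% of 32851 mouse promoters hold GGGCGG. On both strands the cyclic AMP response core TGACGT, the AP-1 box TGANTCA, the TATA box TATAAA and the box CCAAT were searched as well. None is in either stretch, while 6.5% of all promoters hold the first, 6.7% the AP-1 box, 12.4% the TATA box and 33.8% the last. RefSeq lists a further Tbxa2r start, and the 250 bases before that one (chr10:81328453-81328702) hold CCAAT at 1 place and none of the other motifs. RefSeq promoters were matched for 9 of the 10 genes. The transcripts differ more: 62.5% of the bases of the Tbxa2r transcript are G or C, above 98.8% of tested genes, against 54.5% for Ptgir, above 74.9%.

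Levels were compared between the genes per kilobase of the longest transcript, as RPKM from TMM-scaled counts. Tbxa2r had the highest level, at 20.4 ± 2.9 RPKM over the 24 libraries (SD), above 78.2% of tested genes. Ptger1 followed at 10.2 ± 1.33 RPKM, a level that is uncertain because no source used here says whether reads were counted by strand, so reads from the opposite strand may be included. Ptger3 (3.35 ± 1.22 RPKM) and Slco2a1 (3.29 ± 0.90 RPKM) lay close together, and Ptger3 was the higher in 13 of 24 libraries. Hpgd averaged 2.36 ± 0.56 RPKM and Ptgir 2.02 ± 0.50 RPKM, with Hpgd the higher in 18 of 24 libraries. Abcc4 (1.39 ± 0.21 RPKM), Ptger4 (1.10 ± 0.29 RPKM) and Ptgfr (0.892 ± 0.203 RPKM) came next, and Ptger4 exceeded Ptgfr in 18 of 24 libraries. Ptger2 was lowest, at 0.140 ± 0.065 RPKM, above 1.7% of tested genes. The ranges over libraries of Tbxa2r and Ptger1 did not meet, nor did those of Ptgfr and Ptger2, whereas each other pair of neighbours had overlapping ranges. Tbxa2r, Ptger1, Abcc4 and Ptger2 kept their places when length was taken as the union of all exons, while the other 6 changed places.

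**Figure D1:**
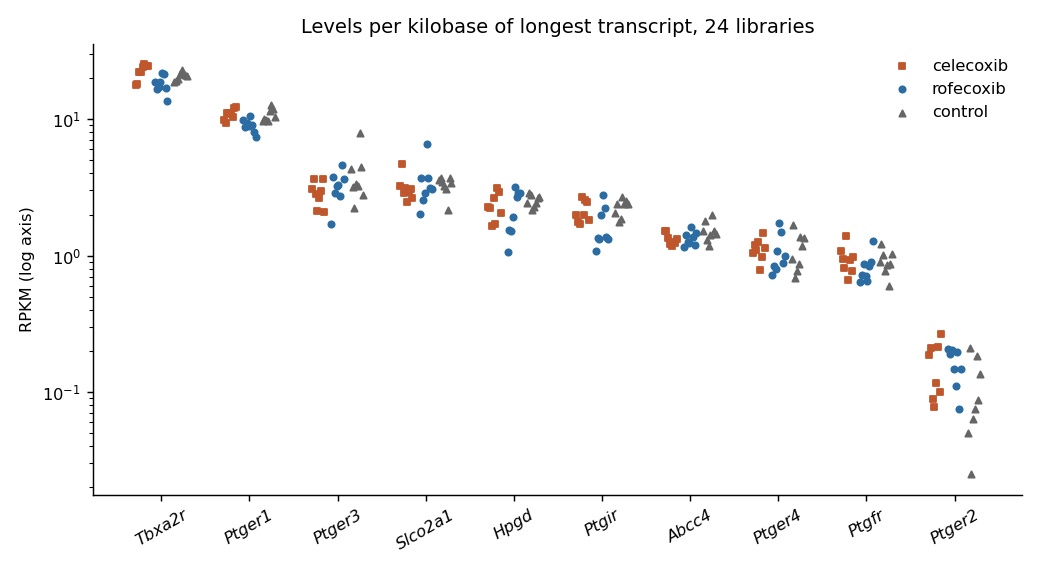
Level of each gene in RPKM (log axis) in 24 libraries, with celecoxib, rofecoxib and control libraries side by side. Tbxa2r lies highest, at 13.5 to 25.2 RPKM, and Ptger2 lowest, at 0.0249 to 0.266 RPKM.

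The ratio of Ptgir to Tbxa2r, per kilobase, sets the transcript of the relaxing receptor against that of the contracting one. It averaged 0.0959 ± 0.0166 in celecoxib, 0.0917 ± 0.0218 in rofecoxib and 0.109 ± 0.0137 in control libraries (SD, n = 8 each). The 3 groups overlapped in this ratio, which ranged from 0.0742 to 0.121 with celecoxib, from 0.0585 to 0.129 with rofecoxib and from 0.0861 to 0.125 in controls. In every group the Ptgir transcript level was thus far below that of Tbxa2r. The ratio was not corrected for GC content, and it does not measure the receptor proteins.

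Against control, the celecoxib diet left all 10 genes short of the threshold, by edgeR's quasi-likelihood test with Benjamini-Hochberg adjustment over all 14451 genes (adjusted p under 0.05). Of the 14451 genes, 1.41% were called in this comparison, 132 higher and 72 lower, or 100 and 83 with library totals as the only scaling. At an unadjusted p under 0.05, 1 of the 10 passed, Ptger3, against 17.3% of all genes, and DESeq2 called 0 of the 10 where it called 3.31% of the genes. The median log2 fold change of the 10 genes was -0.02, beside -0.01 over all genes tested, and 5 were above and 5 below 0.

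Against control, rofecoxib libraries had 1 of the 10 genes called, Ptger1, which fell, where 5.3% of all tested genes were called and 2.87% were called lower. At an unadjusted p under 0.05, 3 passed (Ptgir, Tbxa2r and Ptger1), against 27.1% of all genes. All genes called split into 351 higher and 415 lower with rofecoxib, and into 22 and 58 after a correction for GC content. The median log2 fold change was -0.18 over the 10 genes, beside -0.00 over all genes tested, and 8 of the 10 were below 0. Both drug comparisons share the same 8 control libraries, so their values are given side by side. Between celecoxib and rofecoxib, at unequal doses, 2 of the 10 genes were called, Tbxa2r and Ptger1, both higher with celecoxib, where 22.7% of all tested genes were called and 11.5% were called higher. A count of 2 in 10 is near that background.

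**Figure D2:**
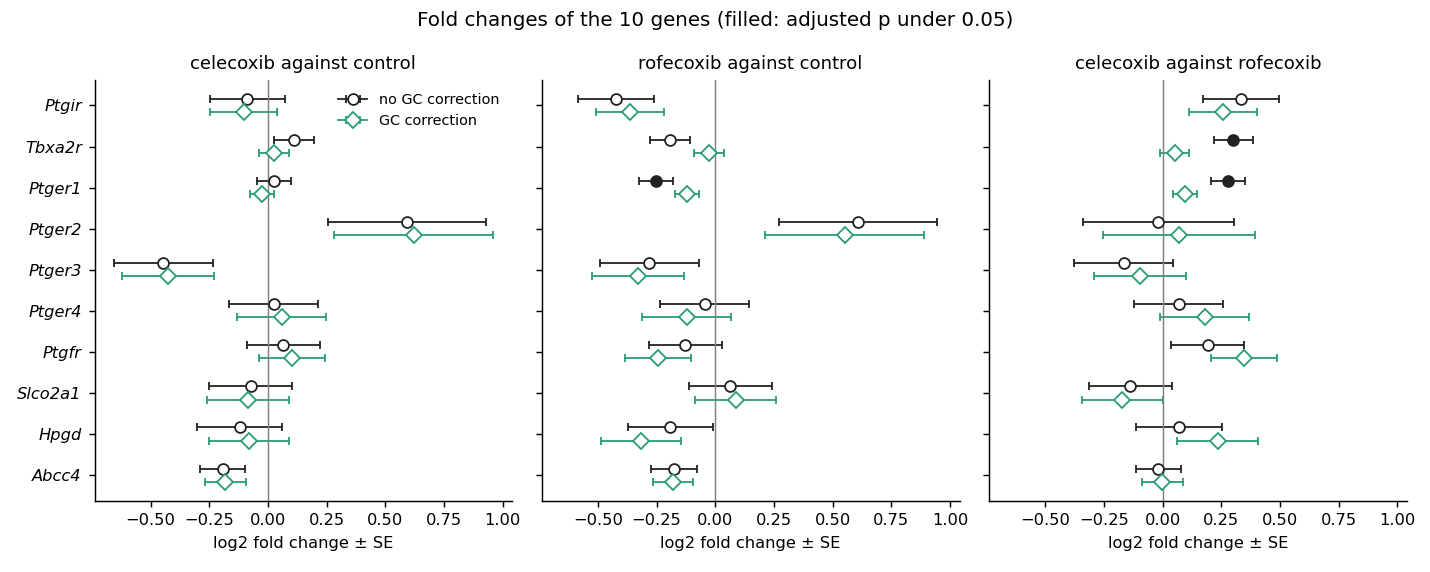
Log2 fold change ± SE of the 10 genes in 3 comparisons, from the fit on deposited counts (circles) and after a correction of each library for transcript GC content (diamonds); filled symbols have an adjusted p under 0.05. The filled symbols are Ptger1 at -0.25 against control with rofecoxib, and Ptger1 at 0.28 and Tbxa2r at 0.30 between celecoxib and rofecoxib, and none is filled after the correction.

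Ptgir, the prostacyclin receptor, is encoded at chr7:17491637-17496456 (mm9). It stood between 5.65 and 8.85 CPM in celecoxib libraries (median 6.55), between 3.60 and 9.21 CPM in rofecoxib libraries (median 4.51) and between 5.86 and 8.96 CPM in controls (median 7.86). The rofecoxib libraries were split: 5 of 8 lay below every control, while rofecoxib 5 was above every control, at 9.21 CPM. The groups overlapped in all 3 comparisons. The log2 fold change against control was -0.09 ± 0.16 with celecoxib (SE, edgeR adjusted p = 0.822, 95% interval -0.42 to 0.24). With rofecoxib it was -0.42 ± 0.16 (edgeR adjusted p = 0.0983, lower than the control mean in 7 of 8 libraries). Of 24 fits that left out 1 library each, 1 passed, that without rofecoxib 5 (-0.56 ± 0.14, edgeR adjusted p = 0.0278). Rofecoxib 5 had the highest Ptgir of its group, so leaving it out lowers the group mean by construction. The rofecoxib value also passed in a fit of all 24 libraries with the endothelium marker score added (-0.48 ± 0.14, edgeR adjusted p = 0.0432), where 6.23% of genes were called. Between celecoxib and rofecoxib the log2 fold change was 0.34 ± 0.16 (edgeR adjusted p = 0.136). Without rofecoxib 5 it was 0.47 ± 0.14 (edgeR adjusted p = 0.0204), again the only 1 of the 24 fits to pass. Rofecoxib 5 had an endothelium marker sum of 1220 CPM, against 567.3 to 983.5 CPM in the other rofecoxib libraries, and the part of endothelium in the Ptgir result was not tested beyond that covariate. In bulk tissue, fewer cells of a type and less RNA per cell cannot be told apart. The genes whose libraries ran most like Ptgir, after each group's mean was subtracted from log2 CPM, were Irf1 (Pearson r = 0.91), Lasp1 (0.88) and Kif21b (0.86), over all 24 libraries.

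Tbxa2r, the thromboxane receptor, lies at chr10:80791275-80798118 (mm9). Its CPM ran from 34.3 to 48.3 in celecoxib libraries (median 44.4), from 26.0 to 41.6 in rofecoxib libraries (median 34.4) and from 36.0 to 43.9 in controls (median 40.3). Of the celecoxib libraries, 6 of 8 lay above every rofecoxib library, and 6 of 8 rofecoxib libraries lay below every control. Celecoxib 1 and 2, at 34.3 and 34.5 CPM, sat below every control. Tbxa2r was higher with celecoxib than with rofecoxib, with a log2 fold change of 0.30 ± 0.08 (SE, edgeR adjusted p = 0.0149) in a comparison of 100 with 50 mg/kg/day. Against control, the log2 fold change was 0.11 ± 0.08 with celecoxib (edgeR adjusted p = 0.520) and -0.19 ± 0.08 with rofecoxib (edgeR adjusted p = 0.145). The GC slope ran from -0.62 to 1.92 in celecoxib, from -2.71 to -0.14 in rofecoxib and from -0.81 to 1.43 in control libraries. Rofecoxib 8 had the lowest slope and the lowest Tbxa2r of all. Rofecoxib 4 and 5, whose slopes were close (-0.14 and -0.22), had 35.98 and 41.6 CPM. After each library was corrected for GC content, Tbxa2r was no longer called between the drugs (0.05 ± 0.06, edgeR adjusted p = 0.661), and 6.14% of genes tested still were. Since the slope itself differed between the drug groups, diet and GC slope cannot be told apart by this correction. The part of GC content in the Tbxa2r values was not tested. The most alike genes were Ampd2 (r = 0.92), Ehmt2 (0.91) and Ddr1 (0.90).

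Ptger1, the calcium-coupled receptor for prostaglandin E2, lies at chr8:86190530-86196854 (mm9). Celecoxib libraries stood between 43.8 and 57.7 CPM (median 51.6), rofecoxib libraries between 34.6 and 49.5 CPM (median 42.2) and controls between 45.1 and 59.1 CPM (median 47.8). All 8 rofecoxib libraries were below the control mean and 6 of 8 were below every control, while rofecoxib 1 and 5 lay among the controls. All 8 celecoxib libraries were above the rofecoxib mean, and 5 of 8 were above every rofecoxib library. Ptger1 fell with rofecoxib against control by 0.25 on the log2 scale (log2 fold change -0.25 ± 0.07, SE, edgeR adjusted p = 0.0454). It was higher with celecoxib than with rofecoxib (0.28 ± 0.07, edgeR adjusted p = 0.0104), and was 0.03 ± 0.07 for celecoxib against control (edgeR adjusted p = 0.890). The fall against control sits at the threshold. It did not pass in 12 of 24 fits that left out 1 library each, where the adjusted p ran from 0.0265 to 0.0999 over all 24. It also did not pass with no filter on low counts (edgeR adjusted p = 0.0629), in a fit of the 2 groups alone (edgeR adjusted p = 0.0663), with the brown adipocyte score (edgeR adjusted p = 0.0695) or without control 6 and rofecoxib 2 (-0.21 ± 0.07, edgeR adjusted p = 0.122). With the smooth muscle score, which was higher in these rofecoxib libraries, the value was -0.17 ± 0.08 (edgeR adjusted p = 0.402). The lost leave-one-out fits were those without celecoxib 3, 5 or 6, without rofecoxib 2, 3, 4, 7 or 8, and without control 5, 6, 7 or 8. With the GC correction it was -0.12 ± 0.05 (edgeR adjusted p = 0.228), where 0.568% of genes tested were called. The contrast of the drugs then was 0.10 ± 0.05 (edgeR adjusted p = 0.246). The Ptger1 transcript is 58.5% G or C, above 92.1% of tested genes, and the part of GC content in these changes was not tested. Reads from the opposite strand may be part of its counts, so these changes may not be those of the receptor alone. The genes most like Ptger1 were Nckap5l (r = 0.91), Vps37b (0.88) and Sh2b1 (0.88).

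The remaining receptors of prostaglandin E2 did not pass in any comparison. Ptger2, which raises cyclic AMP, was close to the limit of counting, with 6 to 21 counts per celecoxib library, 6 to 16 per rofecoxib library and 2 to 17 per control library. Its log2 fold changes against control were 0.59 ± 0.34 for celecoxib (SE, edgeR adjusted p = 0.370, 95% interval -0.10 to 1.29) and 0.61 ± 0.34 for rofecoxib (edgeR adjusted p = 0.242, 95% interval -0.08 to 1.30). Both intervals include 0, so no change in Ptger2 was detectable at this depth. The span of an antisense transcript, Gm17173, covers that of Ptger2 in mm9 (16030 bases), and it had 0 or 1 counts per library.

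Ptger3, which mainly lowers cyclic AMP, ran from 7.43 to 13.1 CPM in celecoxib libraries (median 10.4), from 6.14 to 16.5 CPM in rofecoxib libraries (median 11.7) and from 7.97 to 28.4 CPM in controls (median 11.7). Control 6 stood alone at 28.4 CPM, and the other 7 controls lay between 7.97 and 15.98 CPM. Its log2 fold change was -0.45 ± 0.21 for celecoxib against control (unadjusted p = 0.0451, edgeR adjusted p = 0.274) and -0.28 ± 0.21 for rofecoxib against control (edgeR adjusted p = 0.395). Without control 6 and rofecoxib 2 these values were -0.22 ± 0.17 and -0.08 ± 0.18. Control 6 also had the highest white and general adipocyte marker sum, at 8575 CPM where the other controls had 991.7 to 4352 CPM, and the highest brown adipocyte sum, 1608 CPM. Its Schwann cell and nerve marker sum, 671.9 CPM, was the highest of the controls (median 303.6 CPM). Its smooth muscle, endothelium and fibroblast sums were the lowest of the controls. The white and general adipocyte sums ran from 1285 to 3169 CPM with celecoxib and from 1307 to 4607 CPM with rofecoxib, and 0 of the 10 markers was called in any comparison. With the brown adipocyte score in the fit the celecoxib value was -0.22 ± 0.23. The part of adipose tissue in Ptger3 was not tested further, and that of nerve was not tested. The most alike genes were Hecw2 (r = 0.86), Hoxc8 (0.82) and Nrp2 (0.80).

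Ptger4, which raises cyclic AMP, averaged 4.22 ± 0.75 CPM with celecoxib, 4.02 ± 1.34 CPM with rofecoxib and 4.15 ± 1.28 CPM in controls (SD, n = 8 each). The log2 fold change against control was 0.02 ± 0.19 for celecoxib (SE, 95% interval -0.37 to 0.41) and -0.04 ± 0.19 for rofecoxib (95% interval -0.44 to 0.35). The genes most like Ptger4 were Ralgds (r = 0.83), Pdgfb (0.83) and Cldn5 (0.82), a tight junction gene and one of the endothelium markers here. A pseudogene, Gm15937, covers 15.3% of the Ptger4 exon bases and had 0 or 1 counts per library. Ttc33, on the opposite strand, shares 82 exon bases with Ptger4 (1.2%), their spans overlap by 12080 bases in mm9, and it had 450 to 658 counts per library, where Ptger4 had 56 to 143. The Ptger4 level is uncertain to that extent, since strand counting is not stated. Ptgfr, the prostaglandin F2alpha receptor, ran from 4.35 to 9.23 CPM with celecoxib (median 6.19), from 4.27 to 8.43 CPM with rofecoxib (median 5.16) and from 3.95 to 8.06 CPM in controls (median 5.83). Its log2 fold change was 0.06 ± 0.15 for celecoxib against control (edgeR adjusted p = 0.868), -0.13 ± 0.16 for rofecoxib against control (edgeR adjusted p = 0.623) and 0.19 ± 0.16 between the drugs (edgeR adjusted p = 0.397). Its transcript, at 40.7% G or C, is at the other end from Tbxa2r. The genes most like Ptgfr were F13a1 (r = 0.86), Tlr7 (0.85) and Abca9 (0.82), whereas Tbxa2r ran against it (r = -0.54).

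**Figure D3:**
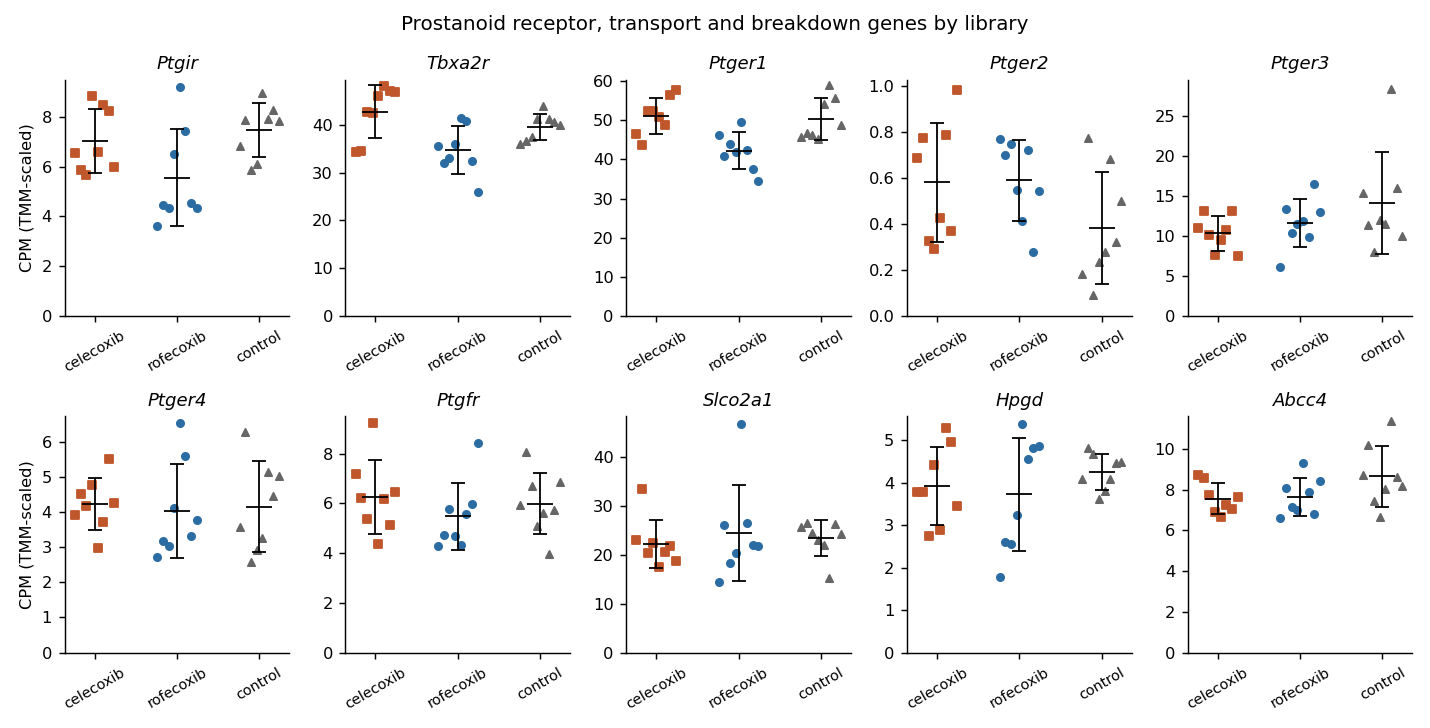
CPM of the 10 genes by library in the celecoxib, rofecoxib and control groups; horizontal marks give the mean and bars the SD of 8 libraries. The groups overlap for every gene, and single libraries stand apart for Slco2a1 (46.7 CPM in rofecoxib 5) and Ptger3 (28.4 CPM in control 6).

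Of the genes that end the signal, none was called in any comparison. Slco2a1, the prostaglandin transporter, ran from 17.5 to 33.5 CPM in celecoxib libraries (median 21.2), from 14.5 to 46.7 CPM in rofecoxib libraries (median 21.9) and from 15.4 to 26.6 CPM in controls (median 24.4). In each group 1 library stood apart. Celecoxib 2 had 33.5 CPM and rofecoxib 5 had 46.7 CPM, each the highest of its group, and control 6 had the lowest value of its group, 15.4 CPM. In endothelium marker sums, celecoxib 2 had 1101 CPM and rofecoxib 5 had 1220 CPM, the highest of their groups, and control 6 had 691.7 CPM, the lowest of its group. Control 6 also had the lowest smooth muscle and fibroblast sums of the controls, and the highest adipocyte sums. Over all libraries the sum of the 12 endothelium markers ran from 762.0 to 1101 CPM with celecoxib, from 567.3 to 1220 CPM with rofecoxib and from 691.7 to 950.9 CPM in controls, and 0 of the 12 was called in any comparison. For celecoxib against control the log2 fold change was -0.07 ± 0.18 (SE, edgeR adjusted p = 0.868), and for rofecoxib against control 0.06 ± 0.18 (edgeR adjusted p = 0.842). The rofecoxib value turned to -0.13 ± 0.14 without rofecoxib 5, and to -0.05 ± 0.12 with the endothelium score in the fit. The part of endothelium in the Slco2a1 values was not tested beyond that covariate. Mmrn2 (r = 0.93), Srgn (0.91) and Clec14a (0.88) were the genes most like Slco2a1, and Mmrn2 and Clec14a are endothelial genes.

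**Figure D4:**
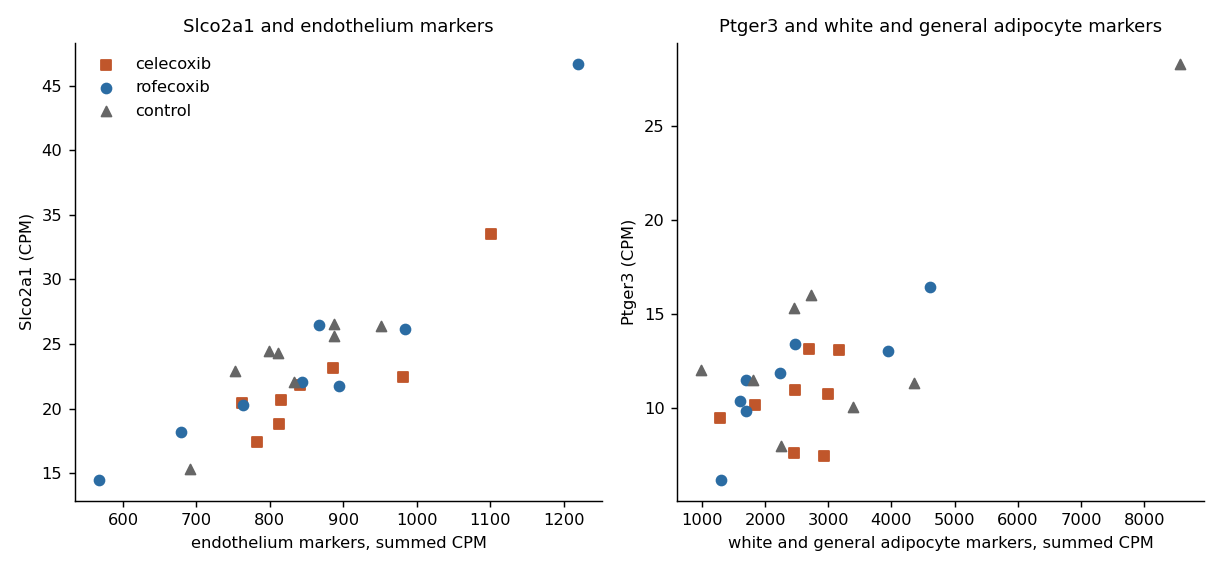
CPM of Slco2a1 against the summed CPM of 12 endothelium markers (left) and CPM of Ptger3 against the summed CPM of 10 white and general adipocyte markers (right), with 1 point per library. Rofecoxib 5, at 46.7 CPM of Slco2a1 and 1220 CPM of markers, and control 6, at 28.4 CPM of Ptger3 and 8575 CPM of markers, lie at the far ends.

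Hpgd, the dehydrogenase that inactivates prostaglandins, ran from 2.76 to 5.28 CPM in celecoxib libraries (median 3.78), from 1.77 to 5.38 CPM in rofecoxib libraries (median 3.89) and from 3.62 to 4.82 CPM in controls (median 4.27). Rofecoxib libraries 1, 2, 3 and 4 lay at 1.77 to 3.23 CPM, all below every control, and rofecoxib 5, 6, 7 and 8 lay at 4.54 to 5.38 CPM. The coefficient of variation was 23.4% with celecoxib, 35.9% with rofecoxib and 9.92% in controls. Macrophage marker sums, with 11 of 12 genes found, ran from 180.7 to 382.3 CPM with celecoxib, from 136.7 to 287.6 CPM with rofecoxib and from 246.0 to 406.4 CPM in controls. With rofecoxib against control 3 of the 11 were called lower. The macrophage sums were 136.7 to 243.3 CPM in rofecoxib 1, 2, 3 and 4, and 254.6 to 287.6 CPM in rofecoxib 5, 6, 7 and 8. T and B lymphocyte marker sums were 10.69 to 15.85 CPM in the former libraries and 20.49 to 32.49 CPM in the latter. In the other groups these lymphocyte sums ran from 9.29 to 72.54 CPM with celecoxib and from 13.82 to 28.4 CPM in controls. The part of macrophages and lymphocytes in the Hpgd values was not tested. No source used here says what the numbers in the library titles mark. They run in a separate block per group, so between groups the numbers and the diets cannot be told apart. Within the rofecoxib group the numbers have a gap between rofecoxib 4 and rofecoxib 5, where the Hpgd values part. The other groups have gaps too, at other places. The bearing of these numbers on Hpgd was not tested. The log2 fold change of Hpgd was -0.12 ± 0.18 for celecoxib against control (SE, edgeR adjusted p = 0.776, 95% interval -0.50 to 0.25) and -0.19 ± 0.18 for rofecoxib against control (edgeR adjusted p = 0.514, 95% interval -0.57 to 0.18). The genes most like Hpgd were Ptprc (r = 0.88), the pan-leukocyte marker, Ly86 (0.86) and Pik3cg (0.85).

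Abcc4, the exporter, varied least of the 3 over all 24 libraries (coefficient of variation 14.7%), at 7.57 ± 0.76 CPM with celecoxib, 7.66 ± 0.93 CPM with rofecoxib and 8.65 CPM in controls, whose coefficient of variation was 17.3% (means ± SD, n = 8 each). Against control, its log2 fold change was -0.19 ± 0.10 with celecoxib (SE, edgeR adjusted p = 0.303) and -0.18 ± 0.10 with rofecoxib (edgeR adjusted p = 0.240), with 7 of 8 libraries of each drug below the control mean. Control 6 was the highest library, at 11.4 CPM. Palmd (r = 0.83), Gimap6 (0.82) and F11r (0.82) were most like it. Among the 10 genes themselves, Tbxa2r and Ptger1 ran most alike (r = 0.73), followed by Ptgir and Ptger4 (0.70), while the lowest value was shared by Tbxa2r with Ptgfr and Ptger1 with Ptgfr (-0.54 each). All r values used CPM not corrected for GC content. In GC content Tbxa2r and Ptger1 are above 98.8% and 92.1% of tested genes, and Ptgfr is above 7.7%. Hpgd, above 7.0%, had r = 0.05 with Tbxa2r and -0.18 with Ptger1. The part of GC content in these values was not tested.

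Other genes of the pathway were read from a list of 111 symbols, of which 99 rows were tested. With celecoxib against control, 1 of the 99 was called: Adcy7, an adenylyl cyclase, fell to 292.4 ± 18.6 CPM with celecoxib, against 342.9 ± 35.8 CPM in controls (-0.23 ± 0.06 as a log2 fold change, edgeR adjusted p = 0.0441, not called in 18 of 24 fits that left out 1 library), where 1.41% of all genes were called. Adcy7 kept its direction but was not called with the GC correction (-0.24 ± 0.07, edgeR adjusted p = 0.111), in a fit of the 2 groups alone (edgeR adjusted p = 0.0701), with no filter on low counts (edgeR adjusted p = 0.0874) or with the brown adipocyte score (edgeR adjusted p = 0.0610). With rofecoxib against control, 5 of the 99 fell and none rose, where 5.3% of all genes were called and 2.87% were called lower. The share is near the former background and above the latter. They were Prkaca, a catalytic subunit of protein kinase A (-0.27 ± 0.08), Arhgef1, a guanine nucleotide exchange factor (-0.27 ± 0.08), Arrb2, a beta-arrestin (-0.37 ± 0.10), and the carriers Slco2b1 (-0.45 ± 0.13) and Abcc3 (-0.89 ± 0.23). None of these 5 was called after the GC correction, where Slco2b1 (-0.44 ± 0.12) and Abcc3 (-0.83 ± 0.23) were about as large as before (edgeR adjusted p = 0.0900 for each). Arrb2 was then -0.28 ± 0.08, Prkaca -0.18 ± 0.06 and Arhgef1 -0.12 ± 0.06. Each was lost in 6 to 15 of 24 fits that left out 1 library. Abcc3 had low counts, 8 to 27 per rofecoxib library and 19 to 39 per control library, and DESeq2 gave it no adjusted p.

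Between celecoxib and rofecoxib, 25 of the 99 were called, 14 higher and 11 lower with celecoxib, beside 22.7% of all genes. Ptgs2, which encodes the target of both drugs, was at 20.9 ± 4.0 CPM with celecoxib and 43.7 ± 7.5 CPM with rofecoxib (log2 fold change -1.06 ± 0.23, SE, edgeR adjusted p = 0.00348), and at 36.6 ± 16.7 CPM in controls. Ptgis, the prostacyclin synthase, was higher with celecoxib (1164 ± 151.5 against 943.7 ± 106.4 CPM, 0.30 ± 0.08, edgeR adjusted p = 0.00940), but not after the GC correction (0.15 ± 0.09, edgeR adjusted p = 0.281). Akr1c14, an aldo-keto reductase, Rgs4, which shortens G protein signals, and Crem, a transcription factor of the cyclic AMP response, were lower with celecoxib (-0.53 ± 0.10, -0.41 ± 0.09 and -0.37 ± 0.08). Rapgef3, an exchange factor that binds cyclic AMP, was higher (0.49 ± 0.11). Also higher were Arhgef1 (0.39 ± 0.08), Arrb2 (0.38 ± 0.10), Plcb3, a phospholipase C (0.27 ± 0.07), and Ppard, a nuclear receptor for fatty acid derivatives (0.23 ± 0.05). The receptor kinases Grk5 (0.46 ± 0.13) and Adrbk1 (0.21 ± 0.06) were higher as well. So were Slco3a1, a carrier (0.17 ± 0.06), Rxra, a nuclear receptor partner (0.17 ± 0.06), and Pla2g4b, a phospholipase (0.29 ± 0.10), which were lost in 8, 17 and 11 of 24 fits that left out 1 library. Abcc1, an exporter, was lower (-0.25 ± 0.06). Ptgs2, Akr1c14, Rgs4, Crem, Rapgef3, Arrb2, Grk5 and Abcc1 were also called after the GC correction, which called 10 of the 99, while Arhgef1, Plcb3, Ppard, Adrbk1, Slco3a1, Rxra and Pla2g4b were not. Of these, Slco3a1 (0.18 ± 0.06) and Ppard (0.19 ± 0.06) had log2 fold changes close to those before the correction, and Arhgef1 (0.17 ± 0.06), Pla2g4b (0.18 ± 0.09) and Plcb3 (0.13 ± 0.06) smaller ones. Adrbk1 (0.06 ± 0.05) and Rxra (0.016 ± 0.049) were near 0. Against control, Ptgs2 was -0.81 ± 0.23 with celecoxib (edgeR adjusted p = 0.0697) and 0.26 ± 0.22 with rofecoxib (edgeR adjusted p = 0.471). The former passed with DESeq2 (adjusted p = 0.0136) and without control 6 and rofecoxib 2 (edgeR adjusted p = 0.0434). Ptgis was 0.26 ± 0.08 with celecoxib (edgeR adjusted p = 0.0879) and -0.04 ± 0.08 with rofecoxib. It passed with celecoxib by DESeq2 (adjusted p = 0.0418) and with the endothelium score (edgeR adjusted p = 0.0326). By edgeR's test, Ptgs1, Ptges and Tbxas1 were not called in any comparison. Ptges, a prostaglandin E synthase, was -0.52 with rofecoxib against control (edgeR adjusted p = 0.0825), and passed with DESeq2 (-0.52, DESeq2 adjusted p = 0.0485) and with the endothelium score in the fit (-0.54 ± 0.15, edgeR adjusted p = 0.0400). The receptors for prostaglandin D2, Ptgdr and Gpr44, had 35 and 37 counts over all 24 libraries and were not tested, and Ptgds had 122.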

How the data were processed

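RNA was sequenced as polyA-selected libraries of mouse thoracic aorta, 24 in all and 8 per group, per the labels' protocols. The authors deposited 1 table of raw counts per gene for all libraries, with mm9 coordinates. CASAVA 1.8.2, STAR 2.5.1b and mm9 are named in the submitters' processing notes; those notes give no counting tool or strand setting. Genes were filtered with filterByExpr, scaled by TMM and tested with edgeR 4.0.16 (R 4.3.3) in 1 quasi-likelihood fit of all 24 libraries with robust spread, 1 mean per group and 21 residual degrees of freedom; Benjamini-Hochberg adjustment ran over 14451 genes, and a gene was called at an adjusted p under 0.05. Normalization factors ran from 0.959 to 1.03. Scripts were tested on simulated data. Each standard error and 95% interval comes from that fit. GENCODE M21 (GRCm38) gave transcript lengths and GC content for the 93.2% of genes whose identifiers matched. The GC correction gave each library an offset from a spline (5 degrees of freedom) of log counts on GC content. Group scores and GC slopes were compared by exact permutation over 12870 splits. Genes most like a member were ranked by Pearson r among those averaging log2 CPM 1 or more. All 10 genes are named; of the other pathway genes, called ones (up to 4 per list by p) and the main synthesis genes are. The members and lists were chosen with earlier results of these data known. Alternatives were other scalings, DESeq2 1.42.0, no filter on low counts, 2 groups only, a replicate block, GC correction, marker scores as covariates and libraries left out. One result that bears on the Ptger1 counts is not reported here.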

Additional observations from a re-analysis of the deposited data

Results flagged for a closer look

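In groups of 8 libraries, 5 values of the 10 genes had a library whose distance to the next one, as a share of the group's range, exceeded Dixon's critical value of 0.526. With 30 groups examined, chance alone picks out about 1 in 20. Slco2a1 gave 3 of the 5. It was at 33.5 CPM in celecoxib 2, where the other celecoxib libraries had 17.5 to 23.1 CPM, at 46.7 CPM in rofecoxib 5, where the others had 14.5 to 26.5 CPM, and at 15.4 CPM in control 6, below the 22.04 to 26.58 CPM of the other controls. Ptger3 was at 28.4 CPM in control 6, and the other controls had 7.97 to 15.98 CPM. Ptgfr was at 8.43 CPM in rofecoxib 8, the library with the lowest GC slope, and the other rofecoxib libraries had 4.27 to 5.97 CPM.

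The direct contrast of celecoxib with rofecoxib, which is the celecoxib effect minus the rofecoxib effect, passed for 2 receptors, where 22.7% of all genes did. On the log2 scale it was 0.30 for Tbxa2r (edgeR adjusted p = 0.0149) and 0.28 for Ptger1 (edgeR adjusted p = 0.0104), with 100 mg/kg/day of celecoxib and 50 mg/kg/day of rofecoxib. Neither passed after the GC correction.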

How the results depend on the processing

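Depth was near equal between libraries. Of the 10 genes, Ptger2 had the lowest counts, 2 to 21 per library. The numbers of genes called, against control with celecoxib (204 as reported), against control with rofecoxib (766) and between the drugs (3275), moved by over 1.5 times as follows. With DESeq2, 479 and 1594 genes were called against control with celecoxib and rofecoxib, with no filter 86 and 294, in fits of the 2 groups alone 88 and 461, with the GC correction 119, 80 and 865 (drugs compared), with the brown adipocyte score 9 and 414, with the smooth muscle score 120 and 18, and without control 6 and rofecoxib 2 215 for rofecoxib. Of the 10 members, the 1 called with rofecoxib became 0 with no filter, with 2 groups alone, with the GC correction, with the brown adipocyte or smooth muscle score and without control 6 and rofecoxib 2, and 2 with the endothelium score; the 2 called between the drugs became 0 with the GC correction. Other pathway genes called, 1 with celecoxib (Adcy7), stayed at 1 with the GC correction and with 2 groups alone, but that 1 was not Adcy7. They became 2 with library totals, 8 with DESeq2, 0 with no filter, 0 with the brown adipocyte score, 3 with the endothelium score, 2 with the smooth muscle score and 4 without control 6 and rofecoxib 2. The 5 with rofecoxib became 11 with DESeq2, 1 with no filter, 2 with 2 groups alone, 0 with the GC correction, 2 with the brown adipocyte score, 0 with the smooth muscle score and 1 without control 6 and rofecoxib 2. The 25 between the drugs became 10 with the GC correction. The cause was not tested.

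The numbers of the titles did not pair the libraries: same-numbered libraries correlated from -0.391 to 0.324 in their deviations, over 0.1 in 10 of 24 pairs, and 5 of 24 libraries correlated best with their own number. With the replicate block, 0 members were called with rofecoxib (Ptger1 edgeR adjusted p = 0.0586), and 0 and 2 pathway genes with celecoxib and rofecoxib. With the GC correction and the replicate block together, 113, 18 and 1007 genes, 0 members with rofecoxib and 0 between the drugs, and 0 and 8 pathway genes (rofecoxib, drugs compared) were called.

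Leaving out 1 library gave 42 to 312, 170 to 1121 and 2147 to 3739 genes called in the 3 comparisons, 0 to 0, 0 to 2 and 2 to 3 members, and 0 to 4, 0 to 10 and 19 to 31 pathway genes.

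Some log2 fold changes, none of them called as reported, changed sign. For celecoxib against control these were Ptger1 with the GC correction (-0.025) and with the replicate block added (-0.026), Ptgfr without control 6 and rofecoxib 2 (-0.0054), Ptger4 with the endothelium score (-0.0044), and, with the smooth muscle score, Hpgd (0.11), Ptgir (0.071), Ptgs1 (0.0085) and Ptges (0.0029). For rofecoxib against control they were Hpgd (0.087), Ptger4 (0.24) and Tbxas1 (0.040) with the smooth muscle score, Ptger4 with the brown adipocyte score (0.0175) and without control 6 and rofecoxib 2 (0.050), Slco2a1 with the endothelium score (-0.054) and without those libraries (-0.017), and Ptgis with the GC correction (0.062) and with the block added (0.065). Between the drugs they were Abcc4 with the GC correction and block (0.00037) and the brown adipocyte score (0.066), and Ptger2 with the GC correction (0.069), with the block added (0.010), with the brown adipocyte score (0.19) and without those libraries (0.016). With 1 library left out, the ranges that crossed 0 were Ptger1 -0.0015 to 0.061, Ptgfr -0.043 to 0.14, Ptger4 -0.052 to 0.13 and Ptgs1 -0.11 to 0.0019 with celecoxib, Slco2a1 -0.13 to 0.13 and Ptger4 -0.17 to 0.068 with rofecoxib, and Hpgd -0.027 to 0.16, Slco2a1 -0.25 to 0.057, Abcc4 -0.055 to 0.022, Ptger2 -0.17 to 0.081 and Ptgs1 -0.036 to 0.12 between the drugs.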
